A study of Mus musculus with 10 samples.

Results

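The axon guidance ligands and receptors are the semaphorins, plexins, neuropilins, ephrins, Eph receptors, Slits, Robo receptors, netrins, netrin-G proteins and the netrin receptors Dcc and Unc5. They were taken by symbol from the deposited gene table, and 73 of its 27933 genes matched, 70 coding genes and 3 antisense transcripts of Plxna4. Their levels were measured in single amacrine cells, retinal interneurons that mostly release GABA or glycine, from mice of the Chx10-cre-GFP strain at postnatal day 19, in 10 droplet libraries. Chx10 drives Cre and GFP in bipolar cells, and the sort kept living cells without GFP and without the surface proteins CD133 and CD73. All 10 libraries share strain, age and sort. The only label that differs is the batch, and batch 1 has 1 library, batch 2 has 5 and batch 3 has 4. The labels tie no library to an animal. A p-value here measures only how far libraries spread, and that spread may be technical.

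Guidance ligands steer growing axons and dendrites by binding receptors on the cell surface, and many of the pairs go on to act in synapse placement. Semaphorins signal through plexins, with neuropilins as the binding partners of the secreted class; ephrins signal through Eph receptors, Slits through Robo receptors, and netrins through Dcc and Unc5. In the inner plexiform layer of the retina, semaphorin 6A and its plexin receptors are known to hold amacrine arbors in the correct layers.

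Cells were grouped by transmitter genes that are no members of the set. The Gad gate, for GABAergic cells, held 16415 cells with at least 2 UMIs (unique molecular identifiers, which count captured RNA molecules) of Gad1 plus Gad2 and none of Slc6a9. The Slc6a9 gate, for glycinergic cells, held 4556 cells with the reverse. These gates held 50.5% and 14% of all 32523 cells, and the other cells were in neither. The narrow gates were Gjd2 (at least 3 UMIs, 1940 cells, a connexin of AII cells), Chat plus Slc18a3 (at least 2, 651 cells, starburst cells), Slc17a8 (at least 2, 666 cells, VG3 cells), Vip (at least 5, 930 cells) and Npy (at least 10, 1548 cells). Each narrow gate was compared with all other cells. Levels are in CPM, the UMIs of a gene summed over a gate in a library and scaled to the same total for every such sum. A value triplet gives the lowest, the median and the highest of the 10 libraries, and a change is called at an adjusted p below 0.05 by edgeR's quasi-likelihood test. Each gate pools cells, so more cells with a transcript and more of it per cell cannot be told apart.

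The libraries held 950 to 4738 cells and 171257947 UMIs in all, with a median of 3296.5 to 5717 UMIs per cell. Median depth was 5411 UMIs per cell in the Gad gate, 3664 in the Slc6a9 gate, 7462 in the Chat gate and 7767.5 in the Npy gate. Libraries 5 and 6 shared 312 cell barcodes, the highest number per possible pair of cells among all pairs of libraries. Without barcodes found in more than 1 library, no count of called members in the 6 gate comparisons moved by more than 2. Markers were checked by gate: Prox1, Dab1 and Nfia were higher in the Gjd2 gate in 10 of 10 libraries (Calb2 was not called), Sox2, Slc5a7 and Isl1 in the Chat gate, and Lhx2 and Tcf4 in the Slc17a8 gate. Only 48.1% of the Gjd2-gated cells were also in the Slc6a9 gate and 11.4% were in the Gad gate, so this gate is not AII cells alone. Of the Slc17a8-gated cells, 28.5% were in the Slc6a9 gate and 8.41% in the Gad gate, so that gate may not be VG3 cells alone. The Chat and Npy gates shared 277 cells. Cells with at least 3 markers of another retinal class numbered 1472, of which 964 carried those of Müller glia and 414 those of bipolar cells. On the Müller glia list, Dkk3 and Glul averaged 617 and 403 CPM in the Gad gate, while Rlbp1 and Aqp4 averaged 5.77 and 1.81 CPM. Whether the counted cells belong to another class or are amacrine cells was not tested.

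Of the 73 members, 49 passed the filter on low counts in at least 1 gate comparison and 48 passed in all 6. The 24 others were tested in none. They include the netrins Ntn1, Ntn4 and Ntn5, the secreted semaphorins Sema3c to Sema3g, the third Slit, 2 Robo receptors, 3 plexins and the antisense transcripts. One antisense transcript, Plxna4os3, had no UMI in 32523 cells, and Plxnb3 had 1. Netrin 1, the diffusible ligand of Dcc and the Unc5 receptors, had 8 UMIs over all libraries. All its 5 listed receptors were tested. Since the filter looks at levels in the groups compared, the counts below are over members that passed and not over the family as a whole.

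**Figure D1:**
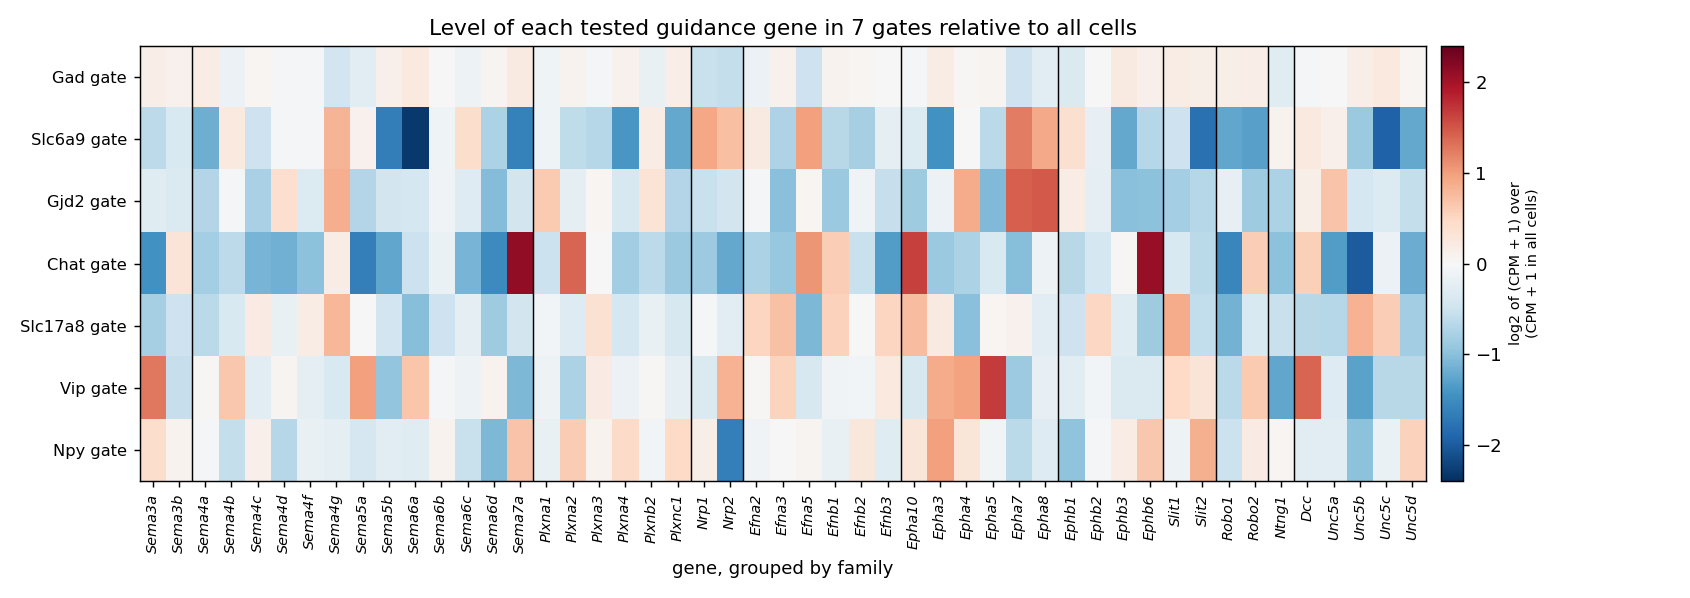
Each column is 1 of the 49 tested genes and each row a gate. Colour gives the log2 of the mean CPM plus 1 in the gate over the mean CPM plus 1 in all cells (10 libraries), with red above and blue below. The deepest blue of the Slc6a9 row is at Sema6a and the deepest reds of the Chat row are at Sema7a and Ephb6.

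The first comparison asks which guidance genes part glycinergic from GABAergic amacrine cells. Most were lower in the Slc6a9 gate: of 48 members tested, 28 were lower and 13 higher, and 7 were not called. Among all 11250 genes tested, 29.1% were lower and 32.1% higher. Members lower by at least 2-fold numbered 14 (7.99% of all genes) and those higher by at least 2-fold 6 (4.84% of all genes). The median log2 change was -0.59 over the members and 0.03 over all genes. In 22 members the 10 libraries of both gates did not overlap, as they did not for 18.1% of all genes. Depth differed between the gates, as given above. Among cells with 3000 to 8000 UMIs alone, the change of Sema6a was -2.45 and that of Epha7 1.76, nearly as in all cells. These are the tested members with the largest changes and do not speak for the others. The call of Ntng1 ended in that window, as given below.

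Ligands divided in both directions. Sema6a (GRCm38 chromosome 18, 47235598 to 47368870, minus strand), a membrane semaphorin that repels neurites bearing class A plexins, had 65.8, 86.0 and 111 CPM in the Gad gate. In the Slc6a9 gate it had 5.70, 15.1 and 19.7 CPM, a log2 change of -2.47 ± 0.12 (SE, adjusted p = 2.11e-13). Every Slc6a9-gated library lay far below every Gad-gated one. Slit2 (chromosome 5, 47983138 to 48307733, plus strand), a secreted repellent, had 103, 135 and 157 CPM against 23.0, 30.6 and 49.4 CPM, a change of -1.97 ± 0.07 (adjusted p = 2.44e-16). Its libraries did not overlap either. Sema7a (chromosome 9, 57940112 to 57962865, plus strand), a lipid-anchored semaphorin that promotes axon growth, fell from 6.79, 10.1 and 13.3 CPM to 0.742, 2.28 and 2.94 CPM (-2.24 ± 0.20, adjusted p = 3.84e-09). Sema4a, a membrane semaphorin, was lower by a log2 change of -1.45 ± 0.12.

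Efna5 (chromosome 17, 62604184 to 62881317, minus strand), the ephrin-A5 ligand of EphA receptors, went the other way. It had 22.9, 35.5 and 45.0 CPM in the Gad gate and 50, 103 and 124 CPM in the Slc6a9 gate, a change of 1.59 ± 0.10 (adjusted p = 1.48e-11). The lowest Slc6a9-gated library, at 50 CPM, was still above the highest Gad-gated one. Ephrins were thus split: Efna5 and Efna2 (0.37 ± 0.06) were higher, while Efna3 (-0.87 ± 0.08), Efnb1 (-0.73 ± 0.08), Efnb2 (-0.83 ± 0.11) and Efnb3 (-0.16 ± 0.06) were lower. Efnb3 is a small change, from 51.0 to 42.6 CPM at the median, and was not called without library 2 (adjusted p = 0.0517) or 10 (0.06), in batch 2 alone (0.312) or without cells of the narrow gates (0.171). Sema4g, a membrane semaphorin, rose from 15.4, 20.7 and 25.1 CPM to 44.1, 51.1 and 63.9 CPM (1.34 ± 0.08, adjusted p = 3.45e-12), with no overlap. Both secreted semaphorins tested, Sema3a and Sema3b, were lower, as were both Slits tested. The call of Sema3b came from batch 3 (-1.20 ± 0.24), while in batch 2 it was not called (-0.09 ± 0.20), and the interaction had an adjusted p of 0.0259.

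Receptors also moved both ways, within families as well as between them. Both neuropilins were higher in the Slc6a9 gate. Nrp1 (chromosome 8, 128358604 to 128503363, plus strand), which binds secreted semaphorins and vascular growth factor, had 4.95, 6.35 and 7.77 CPM in the Gad gate and 11.8, 19.4 and 24.5 CPM in the Slc6a9 gate (1.65 ± 0.12, adjusted p = 1.38e-10). Nrp2, its relative, rose from 9.67, 13.5 and 16.2 CPM to 29.4, 33.2 and 41.8 CPM (1.41 ± 0.09). Neither gene's libraries overlapped. Of 6 plexins tested, the signalling receptors of semaphorins, 4 were lower, 1 (Plxnb2) was higher and Plxna1 was not called (0.04 ± 0.08). Plxna4, a partner of neuropilins and a receptor of semaphorin 6A, fell from 13.3, 18.6 and 22.6 CPM to 2.83, 5.03 and 9.96 CPM (-1.61 ± 0.14, adjusted p = 2.62e-09). Plxna2, likewise a receptor of semaphorin 6A, fell less, by 0.65 on the log2 scale (± 0.07), from a median of 52.9 to 31.5 CPM. Plxnc1, the plexin that binds semaphorin 7A, changed by -1.65 ± 0.19. So Sema6a and the 2 plexins that bind it were lower in the same gate, and Sema7a with Plxnc1 likewise.

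Eph receptors are the receptor tyrosine kinases of ephrins, and of 6 EphA receptors tested 2 were higher and 3 lower. Epha7 (chromosome 4, 28813131 to 28967499, plus strand) rose from 14.6, 20.5 and 24.5 CPM in the Gad gate to 42.6, 71.4 and 88.1 CPM in the Slc6a9 gate (1.77 ± 0.08, adjusted p = 3.56e-14). Epha8 (chromosome 4, 136929419 to 136956816, minus strand) rose from 17.1, 26.3 and 35.2 CPM to 36.8, 53.9 and 81.3 CPM (1.24 ± 0.07, adjusted p = 2.47e-12). For both genes the libraries stood apart. Epha3 fell from 5.76, 11.5 and 14.2 CPM to 0.689, 2.24 and 6.73 CPM (-1.91 ± 0.18), lower in each of the 10 libraries although the gates' ranges met. Epha5 fell from a median of 96.5 to 63.2 CPM (-0.75 ± 0.09, adjusted p = 3.33e-07). Without cells of the narrow gates its change was -0.28 with an adjusted p of 0.061, so this call ended there. Epha4 did not pass (0.01 ± 0.09). Of 4 EphB receptors tested, Ephb1 was higher (0.85 ± 0.11) and Ephb2, Ephb3 and Ephb6 lower, with Ephb3 at -1.86 ± 0.26.

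Robo1 and Robo2, the receptors of Slits, were lower together with Slit2. Robo2 (chromosome 16, 73891839 to 74411825, minus strand) fell from 59.6, 69.1 and 83.7 CPM to 13.4, 22.4 and 41.2 CPM (-1.53 ± 0.10, adjusted p = 2.23e-11). Robo1 fell from 16, 25.8 and 29.2 CPM to 3.26, 9.73 and 11.6 CPM (-1.35 ± 0.13). Libraries of both genes did not overlap. Among the netrin receptors, Unc5c (chromosome 3, 141465216 to 141834924, plus strand), which turns netrin attraction into repulsion, fell from 30.0, 41.2 and 50.7 CPM to 3.34, 6.89 and 14.7 CPM (-2.30 ± 0.14, adjusted p = 4.24e-12). Unc5b (-1.49 ± 0.25) and Unc5d (-1.15 ± 0.18) were lower as well. Unc5a (0.13 ± 0.13) and Dcc (0.32 ± 0.18), the attractive netrin receptor, did not pass. Ntng1, a lipid-anchored netrin-G that binds a synaptic adhesion protein and not Dcc, was called higher (0.46 ± 0.13, adjusted p = 0.0036), but in 5 of 10 libraries only. Its call ended in batch 2 alone (adjusted p = 0.769) and among cells with 3000 to 8000 UMIs (0.587).

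**Figure D2:**
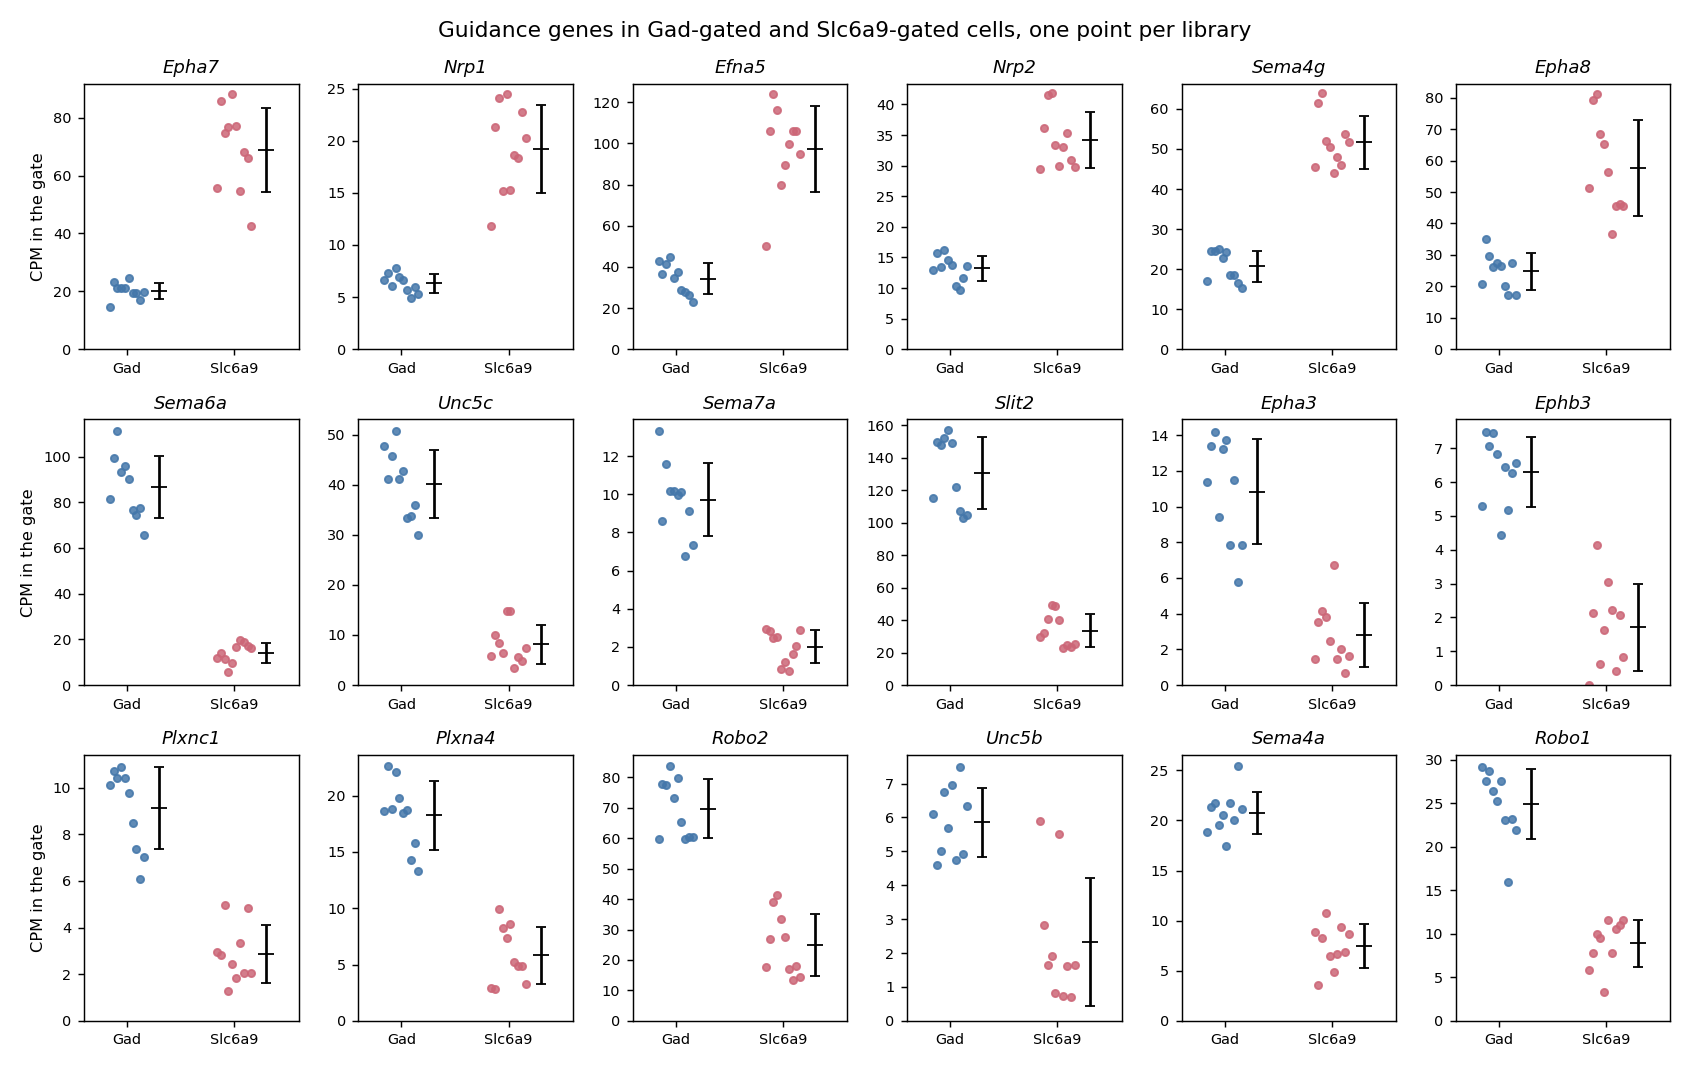
Each panel shows 1 gene called at a fitted change of 2-fold or more and moving the same way in every library, with the CPM of the Gad gate (blue) and the Slc6a9 gate (red) on a linear axis from 0. Points are the 10 libraries, and the bar beside them is the mean ± SD. The 6 genes of the upper row are higher in the Slc6a9 gate in each library and the 12 below are lower. In Epha3 and Unc5b the ranges of the gates meet.

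Counts of called members under alternative settings, here and below, are given without the share of all genes called there. They do not show whether members moved apart from other genes. Without cells of the 5 narrow gates, 12 members were higher and 22 lower of 46 tested. Sema6a changed by -2.14 ± 0.15, Slit2 by -1.58 ± 0.09, Unc5c by -2.83 ± 0.15 and Nrp1 by 2.13 ± 0.12. Epha7 changed by 1.05 ± 0.09 in place of 1.77. The calls of Sema4c, Epha10, Ephb2, Epha5, Ephb6, Sema3b, Efnb3 and Plxnb2 ended, and Plxna3 and Slit1 were not tested there. Epha4 (-0.67), Plxna1 (-0.52) and Unc5a (-0.65), which were not called among all cells, were then lower. The Müller glia list summed to 405 to 536 CPM in the Slc6a9 gate and to 939 to 1240 CPM in the Gad gate, with 3 of 8 markers higher, 3 lower and none at 0. Cone markers were higher in the Slc6a9 gate for 6 of 6 tested (86.7 to 227 CPM in sum against 81.8 to 141 CPM in the Gad gate), and rod markers for 3 of 3 (97.2 to 168 against 72.2 to 145 CPM). None of either was lower. Without the cells that carried at least 3 markers of another class, Sema6a stood at -2.45 and Epha7 at 1.79.

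Some members were too scarce for the filter and yet higher in Slc6a9-gated cells. They were named after their values were seen, from a fit with no filter on low counts. The other scarce members in that fit were not called between the classes, and the share of all genes called in it is not given here. Robo3 (chromosome 9, 37415669 to 37433246, minus strand), the divergent Robo receptor known from axons that cross the midline, had 16 UMIs in the Gad gate and 104 in the Slc6a9 gate. That is 0, 0.128 and 0.499 CPM against 1.84, 6.36 and 12.7 CPM, with no overlap (5.12 ± 0.35, adjusted p = 3.76e-18). Plxnb1 (chromosome 9, 109095389 to 109119917, plus strand), a receptor of semaphorin 4D, had 39 UMIs in the Gad gate and 75 in the Slc6a9 gate, at 0.115, 0.358 and 0.887 CPM against 2.54, 4.24 and 7.85 CPM (3.39 ± 0.31). These ranges also stood apart. Epha2 had 5 and 22 UMIs (3.78 ± 0.70), with a lowest library of 0 CPM in either gate. Its UMIs in the Slc6a9 gate lay mostly in batch 3, at 1.11 to 4.83 CPM, against 0 to 0.83 CPM in batch 2 and 0 in batch 1. Over all cells Robo3 had 380 UMIs and Plxnb1 had 220, so many lay in cells of neither class gate. Robo3 was lower in all 5 narrow gates (largest adjusted p = 0.0349, in the Chat gate), the Gjd2 gate included at -3.52 ± 0.51. Plxnb1 was higher in the Gjd2 gate (0.96 ± 0.29, adjusted p = 0.011) and lower in the Npy gate (-2.12 ± 0.58, adjusted p = 0.00556). Sema3d was higher in the Vip gate (1.73 ± 0.48) and lower in the Gjd2 gate (-1.98 ± 0.66). Ntn4 was lower in the Npy gate (-1.91 ± 0.59). In the Gjd2 gate Ntn4 (-1.20 ± 0.46, adjusted p = 0.0495) and Efna1 (-0.86 ± 0.33, adjusted p = 0.048) were lower, both close to the threshold. Ntn4 was also called lower in the Chat gate (-6.29 ± 1.87, adjusted p = 0.0137). It had 0 UMIs there and 173 in all cells, so this value does not give the size of the change.

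The promoters of Robo3 and Plxnb1 are shown because Ebf1, a transcription factor that binds a short palindrome, was also higher in the Slc6a9 gate (547 against 17.5 CPM on average, log2 change 4.96 ± 0.11). In the Gjd2 gate, where Plxnb1 was higher and Robo3 lower, Ebf1 had 40.1 CPM on average, against 151 CPM in all cells. A link between Ebf1 and either gene was not tested. RefSeq promoters of build GRCm38.p6, 250 bases before to 50 after the start, were at hand for 60 of the 73 members. The EBF motif, chosen with this result known, was TCCC, any 2 bases, then GGGA, which reads the same on both strands. It occurred in 3 of the 60 member promoters, those of Robo3, Plxnb1 and Sema4b, and in 0.914% of 27025 promoters. The median number of CG pairs was 22 in member promoters and 7 in all promoters. The motif is rich in G and C, so these shares do not compare like with like. Capitals mark the match in each sequence, 5′ to 3′ on the gene's strand: Robo3 at chr9:37433126-37433425 (minus), Plxnb1 at chr9:109095186-109095485 (plus) and Sema4b at chr7:80186620-80186919 (plus).
Robo3: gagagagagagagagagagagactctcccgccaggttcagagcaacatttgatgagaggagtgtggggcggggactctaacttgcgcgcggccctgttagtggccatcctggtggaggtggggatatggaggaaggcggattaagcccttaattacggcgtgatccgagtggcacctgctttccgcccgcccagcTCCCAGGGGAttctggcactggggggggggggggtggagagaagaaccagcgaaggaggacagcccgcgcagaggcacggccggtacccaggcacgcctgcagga
Plxnb1: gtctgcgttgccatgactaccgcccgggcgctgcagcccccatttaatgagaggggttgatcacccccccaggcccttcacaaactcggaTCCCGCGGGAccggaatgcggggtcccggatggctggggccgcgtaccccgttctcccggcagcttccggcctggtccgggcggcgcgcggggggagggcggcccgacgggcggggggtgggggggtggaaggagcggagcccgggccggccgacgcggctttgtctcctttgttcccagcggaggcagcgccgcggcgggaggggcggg
Sema4b: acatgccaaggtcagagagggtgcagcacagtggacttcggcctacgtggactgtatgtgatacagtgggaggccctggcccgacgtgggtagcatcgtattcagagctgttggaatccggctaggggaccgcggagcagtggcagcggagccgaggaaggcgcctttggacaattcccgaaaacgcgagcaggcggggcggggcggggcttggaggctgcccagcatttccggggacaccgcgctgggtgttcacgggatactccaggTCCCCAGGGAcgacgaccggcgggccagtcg
In Sema4b, a membrane semaphorin, the class difference was small (0.39 ± 0.08, higher in 9 of 10 libraries). Motifs of 2 other factor families were searched too. TGACAG, bound by Meis factors, was in 7 of 60 member promoters, Plxna2 and Sema7a among them, and in 19.3% of all; CAGATG, an E-box of NeuroD factors, was in 5 of 60, such as that of Efna3, and in 17.2% of all. Both strands were searched. A match says only that these letters are present.

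Other genes of guidance signalling moved in both directions. Of a list of 82 co-receptors, adaptors and cytoskeletal effectors outside the set, 70 were tested between the classes, 18 of them higher and 33 lower in the Slc6a9 gate, or 25.7% and 47.1%, where 32.1% and 29.1% of all genes were. The receptor phosphatase Ptprf was higher (259 against 37.2 CPM on average, 2.81 ± 0.13), as were the Rac regulator Chn2 (1.39 ± 0.10) and Rgma, a ligand of the netrin receptor neogenin (1.35 ± 0.11). Dpysl3, a collapsin response mediator downstream of semaphorins, was lower (-2.5 ± 0.09). So was Ngef, the ephexin that acts downstream of EphA receptors (-2.37 ± 0.11).

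In the Gjd2 gate, 3 EphA receptors led. Of 49 members tested, 8 were higher and 24 lower against all other cells, with 23.9% and 24.5% of 11647 genes higher and lower. At least 2-fold, 4 were higher (2.65% of all genes) and 4 lower (3.14%). The median change was -0.33, against 0.00 over all genes. Epha8 had 74.3, 83.9 and 95.8 CPM in the gate and 18.1, 25.1 and 35.0 CPM in other cells (1.76 ± 0.10, adjusted p = 1.17e-11). Epha7 had 66.1, 80.2 and 108 CPM against 16.3, 24.3 and 27.3 CPM (1.75 ± 0.07). Epha4, a receptor of both ephrin classes, had 32.1, 50.2 and 56.4 CPM against 17.7, 24.9 and 28.9 CPM (1.10 ± 0.09). No library of the gate overlapped with other cells for any of the 3. The same held for 9 of the 49 members and for 10.4% of all genes. Epha4 was not different between the Gad and Slc6a9 gates as tested above, and within Slc6a9-gated cells alone the Gjd2 gate still had more of it (1.95 ± 0.18). Sema4g was the fourth gene past 2-fold (1.06 ± 0.06). Among the same Slc6a9-gated cells its change was 0.63, that of Epha8 2.03 and that of Epha7 1.64. Of 12 bipolar markers, 7 were higher in the Gjd2 gate, 2 lower and none at 0, with a sum of 171 to 451 CPM against 263 to 396 CPM in all cells. Without the 162 of 1940 gated cells, and all others, that carried markers of another class, 10 members were higher and 29 lower.

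Lower in the Gjd2 gate were Ephb3 (-1.12 ± 0.28), Ephb6, a kinase-dead Eph receptor (-1.0 ± 0.12), Sema6d (-1.29 ± 0.25) and Slit1 (-1.13 ± 0.29, in 9 of 10 libraries). The call of Ephb3 ended with the gate minimum doubled to 6 UMIs (adjusted p = 0.0813). Epha5 had 20.8, 44.9 and 70.6 CPM against 80.3, 99.7 and 111 CPM (-0.96 ± 0.11), without overlap, and within Slc6a9-gated cells the change was -2.72 ± 0.19. On the guidance pathway list, 18 of 72 tested were higher and 26 lower (25% and 36.1%, against 23.9% and 24.5% of all genes), led by Dock1, an activator of Rac (1.64 ± 0.18), and Chl1, an adhesion molecule and semaphorin co-receptor (-2.25 ± 0.40).

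In the Chat gate a few members stood far above other cells while most were lower. Of 49 tested, 9 were higher and 31 lower, where 16.8% and 18% of 11416 genes were higher and lower. At least 2-fold, 5 were higher (4.04% of all genes) and 14 lower (7.06%), and the median change was -0.70 against -0.01. The Chat gate had 17 to 129 cells in a library. Sema7a had 12.1, 43.4 and 74.1 CPM against 5.46, 7.32 and 8.96 CPM (2.57 ± 0.17, adjusted p = 5.52e-13). Ephb6 (chromosome 6, 41605482 to 41620509, plus strand) had 69.1, 85.9 and 125 CPM against 12, 19.4 and 23.9 CPM (2.36 ± 0.10, adjusted p = 1.65e-17). Both stood clear of other cells in every library. Epha10, the other kinase-dead Eph receptor (chromosome 4, 124880899 to 124917800, plus strand), had 36.4, 105 and 115 CPM against 21.5, 29.0 and 31.7 CPM (1.89 ± 0.10). Plxna2 (chromosome 1, 194618218 to 194816869, plus strand), a receptor that starburst cells are known to use with semaphorin 6A, had 79.0, 145 and 160 CPM against 36.1, 47.4 and 58.5 CPM (1.56 ± 0.08, adjusted p = 5.53e-15). Neither gene's ranges overlapped. Ranges stood apart in this gate for 10 of the 49 members and for 7.69% of all genes. Efna5 was higher in 9 of 10 libraries (1.29 ± 0.11), and among Gad-gated cells alone by 1.93. Robo2 (0.68 ± 0.09) and Efnb1 (0.67 ± 0.10) were also higher.

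Sema6a, the ligand of Plxna2, was lower in the Chat gate, with 30.7, 50.4 and 77.7 CPM against 54.7, 78.8 and 96.9 CPM (-0.44 ± 0.09, adjusted p = 0.000418). Called lower at 2-fold or more, and lower in every library, were Unc5b, Sema6d, Sema3a, Robo1, Unc5a, Sema6c, Sema5a, Efnb3 and Nrp2. Unc5b had 0, 0 and 2.87 CPM against 3.62, 5.23 and 6.88 CPM (-2.41 ± 0.47), and Efnb3 0, 22.9 and 30.4 CPM against 45.0, 51.4 and 65.0 CPM (-1.17 ± 0.15). Some Chat-gated libraries were at 0 CPM for these 2 genes. The number of lower members changed most when Npy-gated cells were left out. Without those cells, an alternative chosen after seeing the data, 7 members were higher and 9 lower. The Chat gate then held 374 cells in place of 651, and the part of this smaller number in the lost calls was not tested. The calls of Unc5b (adjusted p = 0.068), Sema6c (0.347), Sema5a (0.125), Nrp2 (0.123) and Ntng1 (0.238) then ended, while Sema7a (2.05), Ephb6 (1.95), Epha10 (1.76) and Plxna2 (1.40) were still higher. In batch 3 alone, 10 members were lower. The bipolar list summed to 895 to 1520 CPM in the Chat gate and 263 to 396 CPM in all cells, with 8 of 12 markers higher and none lower or at 0. Isl1, which starburst cells also express, had 788 CPM on average, Pcp2 95.4 CPM against 50.2 CPM in all cells, and Trpm1 15.3 against 7.48 CPM. In this gate 51 of 651 cells carried at least 3 markers of another class. The AII list was high in the Chat gate (3750 to 8430 CPM) through Calb2 alone, its other 4 markers being lower. Without cells with markers of another class, 8 members were higher and 29 lower. On the pathway list, 12 of 71 were higher, led by the cytoskeletal kinase Rock2 (2.03 ± 0.09) and Dpysl3 (1.47 ± 0.10), and 23 were lower. These are 16.9% and 32.4%, against 16.8% and 18% of all genes.

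In the Slc17a8 gate changes were small. Of 49 members, 9 were higher and 12 lower, where 10.6% and 14.5% of 11459 genes were higher and lower. No member was higher by at least 2-fold (2.78% of all genes) and 2 were lower by as much (3.04%), while by edgeR without adjustment 9 were higher and 15 lower at p below 0.05, and DESeq2 called 8 higher and 8 lower. The median change was -0.15 over the members and -0.01 over all genes. Robo1 had 2.96, 7.30 and 23.3 CPM against 14.9, 24.7 and 27.4 CPM (-1.19 ± 0.21, adjusted p = 3.76e-05), lower in each library, with ranges that met. Efna5 had 0, 21.8 and 41.2 CPM against 41.4, 48.5 and 56.4 CPM (-0.91 ± 0.15), and Sema6a was lower by a log2 change of -0.93 ± 0.14. Higher were Sema4g (0.84 ± 0.12), Efna3 (0.67 ± 0.10), Epha10 (0.62 ± 0.12) and Efnb1 (0.55 ± 0.11), each in 10 of 10 libraries. Epha5, at 96.3 CPM against 92.5 CPM on average, did not pass (0.09 ± 0.08). Ntng1 did not pass either (-0.38 ± 0.15, adjusted p = 0.0574), but did without cells with markers of another class (-0.83, adjusted p = 1.13e-05) and in batch 3 alone (-1.23). Those cells made up 116 of the 666 in the gate, 66 of them with Müller glia and 53 with bipolar markers. Of 12 bipolar markers, 10 were higher in the gate and none lower, and the list summed to 265 to 1050 CPM against 263 to 396 CPM in all cells. Of 7 Müller glia markers tested, 1 was higher and 3 lower. Slc1a3, on that list, averaged 211 CPM in the gate and 21.6 CPM in all cells, while Rlbp1 averaged 4.95 and 7.44 CPM. Without the cells with markers of another class, Sema6a changed by -1.50 in place of -0.93, and 9 members were higher and 13 lower. On the pathway list, 11 of 72 were higher, led by the Robo effector Srgap1 (1.69 ± 0.32), and 18 were lower, led by Rgma (-1.22 ± 0.36). These are 15.3% and 25%, against 10.6% and 14.5% of all genes.

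In the Vip gate, Epha5, Dcc and Sema3a had the largest increases. Of 49 members, 13 were higher and 11 lower, where 12.5% and 13.1% of 11429 genes were higher and lower. At least 2-fold, 5 were higher (1.85% of all genes) and 4 lower (3.39%), and the median change was -0.07 over the members and 0.00 over all genes. Epha5 (chromosome 5, 84054761 to 84417382, minus strand), a receptor of ephrin-A ligands, had 211, 305 and 417 CPM against 71.5, 89.6 and 99.6 CPM in other cells (1.82 ± 0.07, adjusted p = 1.47e-23). The lowest library of the gate stood above the highest of other cells by more than the whole range of the latter. Dcc (chromosome 18, 71253634 to 72351069, minus strand) had 15.3, 20.5 and 28.8 CPM against 4.76, 7.37 and 8.51 CPM (1.55 ± 0.17, adjusted p = 1.68e-09). Sema3a (chromosome 5, 13125414 to 13602565, plus strand), the repellent that binds Nrp1, had 20.6, 39.8 and 46.0 CPM against 9.55, 14 and 17.9 CPM (1.39 ± 0.12, adjusted p = 2.42e-12). Sema5a (1.14 ± 0.13), a semaphorin with thrombospondin repeats, and Epha4 (1.02 ± 0.10) completed the 5. None of these overlapped with other cells, as 8 of the 49 members and 5.28% of all genes did not. Sema6a (0.77 ± 0.07), Robo2 (0.63 ± 0.08) and Efna3 (0.61 ± 0.09) were higher in 10 of 10 libraries by less than 2-fold. Ntng1 had 8.80, 28.9 and 53.5 CPM against 63.4, 74.0 and 83.3 CPM (-1.16 ± 0.11), without overlap. Of 5 netrin receptors tested, Dcc alone was higher, and Unc5b, Unc5c (-0.61 ± 0.13) and Unc5d (-0.66 ± 0.12) were lower. No EphB receptor was called of 4 tested. The other secreted semaphorin tested, Sema3b, was lower (-0.71 ± 0.24). Unc5b stood at -1.38 ± 0.38, though its call did not hold in batch 2 alone (adjusted p = 0.0724) or batch 3 alone (0.0582). Among Gad-gated cells alone Epha5 changed by 1.82, as in all cells. The pathway list had 16 of 71 higher, led by Chl1 (2.33 ± 0.22) and Ngef (1.20 ± 0.11), and 14 lower, led by Lrrc4, the partner of the related netrin-G2 (-1.09 ± 0.18). These are 22.5% and 19.7%, against 12.5% and 13.1% of all genes.

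In the Npy gate Slit2 stood out among ligands. Of 49 members, 13 were higher and 14 lower, where 15.4% and 13.3% of 11660 genes were higher and lower. At least 2-fold, only Epha3 was higher (1.38% of all genes) and 4 were lower (2.5%), and the median was -0.06 against 0.00. Slit2 had 173, 214 and 256 CPM against 79.1, 113 and 140 CPM (0.94 ± 0.06, adjusted p = 4.91e-13), with no overlap. Ranges stood apart in this gate for 4 of the 49 members and for 4.49% of all genes. The Slit2 receptor Robo2 was slightly higher (0.23 ± 0.05), a call that ended without Chat-gated cells (adjusted p = 0.205). Robo1, the other Slit2 receptor tested, was lower (-0.55 ± 0.11). Nrp2 had 0, 5.62 and 12.1 CPM against 18.9, 21.9 and 23.1 CPM (-1.67 ± 0.16, adjusted p = 2.64e-09), without overlap, and Unc5b was lower (-1.16 ± 0.27). Plxna2 (0.68 ± 0.06) and Unc5d (0.60 ± 0.07) were higher in 10 of 10 libraries. Epha5 (-0.02 ± 0.06) and Ntng1 (0.11 ± 0.09) were not called.

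In the Npy gate, 2 members changed sign once Chat-gated cells were left out. In all cells of the gate, Ephb6 (0.73 ± 0.09) and Sema7a (0.82 ± 0.13) were higher in 10 of 10 libraries. Without Chat-gated cells, an alternative chosen after seeing the data, Ephb6 was lower (-0.33 ± 0.12, adjusted p = 0.0342) and so was Sema7a (-0.64 ± 0.22, adjusted p = 0.0301). Plxna2 was still higher, by 0.38, and so were Slit2 (1.11), Unc5d (0.81) and Epha3 (1.36), while Nrp2 stood at -1.61. In that setting 11 members were higher and 16 lower. The starburst list summed to 241 to 771 CPM in the Npy gate and to 38.0 to 116 CPM in all cells. On the pathway list, 20 of 72 were higher, led by the adhesion molecule and semaphorin co-receptor Nrcam (0.95 ± 0.06), and 16 lower, led by Chl1 (-2.59 ± 0.35). These are 27.8% and 22.2%, against 15.4% and 13.3% of all genes.

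**Figure D3:**
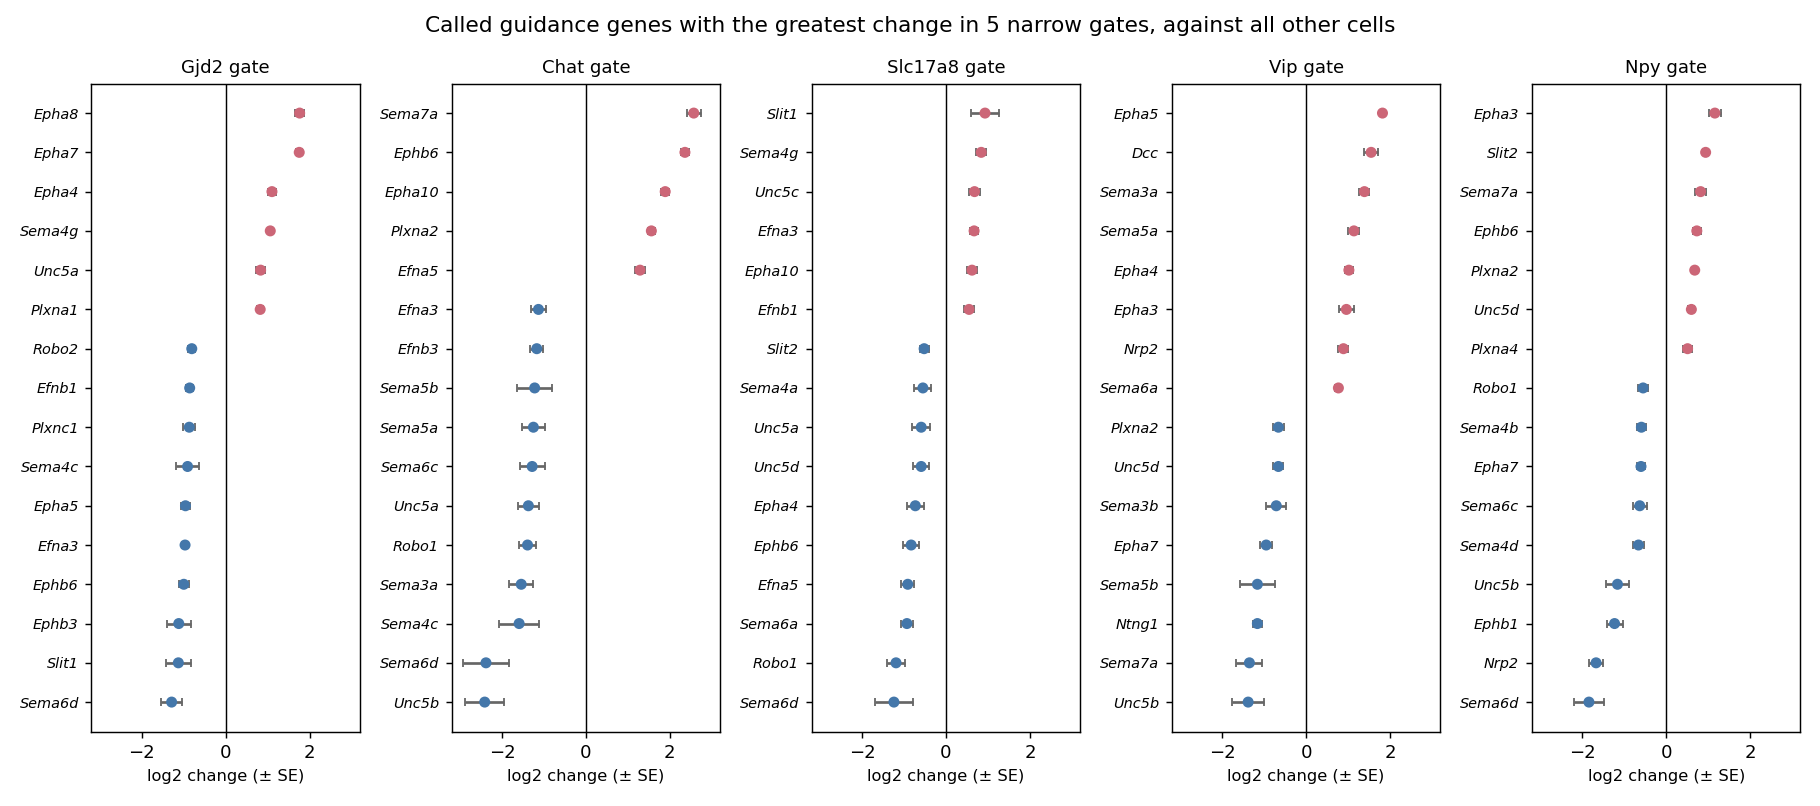
Panels show, for each narrow gate against all other cells, up to 16 called members with the greatest absolute change. Points are log2 changes and bars are ± 1 SE over 10 libraries, red for higher and blue for lower. Sema7a and Ephb6 reach 2.57 and 2.36 in the Chat gate and Epha5 reaches 1.82 in the Vip gate.

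Across gates, single members covered a wide range. Epha5 had 298 ± 58.0 CPM in the Vip gate (mean ± SD, n = 10), then 96.6 ± 10.4 in the Gad, 96.3 ± 21.5 in the Slc17a8 and 88.4 ± 17.4 in the Npy gate. These 3 neighbours differed by less than their spread. It ended with 71.5 ± 22.8 in the Chat, 58.5 ± 18.8 in the Slc6a9 and 44.2 ± 20.2 in the Gjd2 gate. Sema6a had 118 ± 35.9 CPM in the Vip and 86.6 ± 13.6 in the Gad gate and went down to 35.7 ± 23.3 in the Slc17a8 and 14.1 ± 4.38 in the Slc6a9 gate. Efna5 was highest in the Chat gate (103 ± 35.0 CPM) and the Slc6a9 gate (97.2 ± 20.8 CPM), which lay within their spread, and lowest in the Slc17a8 gate (22.4 ± 13.6 CPM). Gates share cells, so these levels are a description.

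The batches, which the labels give no biological difference, shifted most members one way. In the Gad gate, batch 3 (4 libraries) against batch 2 (5 libraries) had 35 of 54 members lower and none higher, where 25.1% of 13025 genes were lower and 23.4% higher. Without adjustment edgeR put 2 members higher at p below 0.05, and DESeq2 called none higher and 28 lower. The median was -0.33 over the members and -0.01 over all genes. Sema4b had 19.6 to 30.1 CPM in batch 2 and 13.2 to 14 in batch 3 (-0.84 ± 0.11, adjusted p = 5.68e-06), and Efnb2, the ephrin-B2 ligand, 27.7 to 37.4 and 15.9 to 19.2 CPM (-0.79 ± 0.09). Slit2 was lower by 0.42 on the log2 scale. For Sema4b and Efnb2 the batches did not overlap. In the Slc6a9 gate, 4 of 40 members were higher and 17 lower in batch 3, where 15.3% and 15.6% of 9963 genes were. Median depth was 3296.5 to 4284.5 UMIs per cell in the libraries of batch 2 and 4403 to 5598 in those of batch 3, and its part in the result was not tested. On the pathway list 9 of 78 were higher and 40 lower in the Gad gate, or 11.5% and 51.3%, against 23.4% and 25.1% of all genes.

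**Figure D4:**
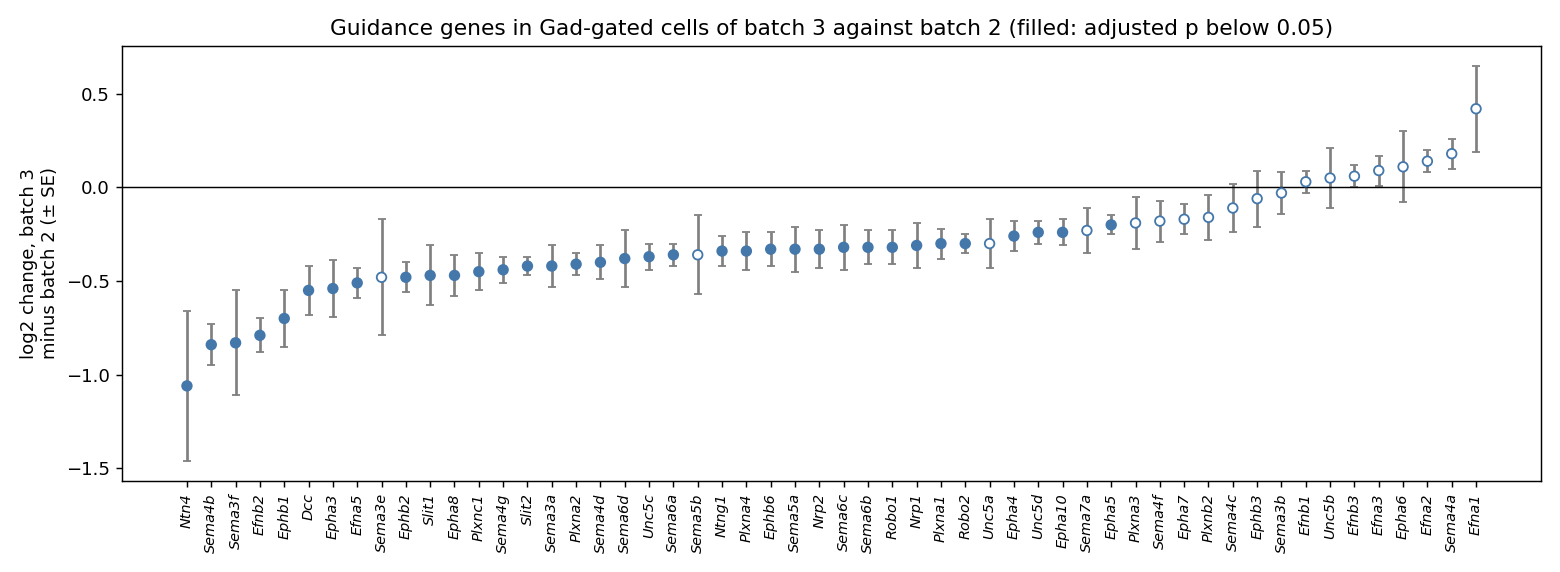
The log2 change from batch 2 (5 libraries) to batch 3 (4 libraries) in Gad-gated cells, ± 1 SE, is shown for 54 members in order of size. Filled points pass the test. All 35 of them lie below 0.

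The class difference itself depended on the batch for 9 members. The interaction was called higher for 5 and lower for 4 of 53, where 4.27% and 3.41% of 12448 genes were. The Slc6a9 gate held 8.13 to 11.3% of the cells of a library in batch 2 and 21.2 to 23.2% in batch 3, and the Gad gate 48.9 to 56.5% and 45.2 to 46.5%. The part of these shares in the result was not tested. Unc5d (chromosome 8, 28646717 to 29219636, minus strand) had 46.7 to 54.4 CPM in the Gad gate and 10.1 to 13.1 CPM in the Slc6a9 gate of batch 2, a class change of -2.16 ± 0.13. In batch 3 it had 39.8 to 46.2 and 24.8 to 34.5 CPM, a class change of -0.48 ± 0.10. The larger shift was in the Slc6a9 gate, where no library of batch 3 was as low as any of batch 2. Ntng1 (chromosome 3, 109780040 to 110144011, minus strand) did not differ by class in batch 2 as tested (0.03 ± 0.08) and did in batch 3 (0.91 ± 0.07), at 43.5 to 60.9 against 80.6 to 105 CPM. The class change of Sema6a was -3.04 ± 0.12 in batch 2 and -2.02 ± 0.10 in batch 3. Epha5 (-0.45 ± 0.07 and -1.18 ± 0.08) and Robo2 (-1.21 ± 0.09 and -1.99 ± 0.11) were lower in both batches and more so in batch 3, and Efna5 was higher in both (1.42 ± 0.07 and 1.93 ± 0.07). Batch is not tied to any biological label, and the cause was not tested.

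**Figure D5:**
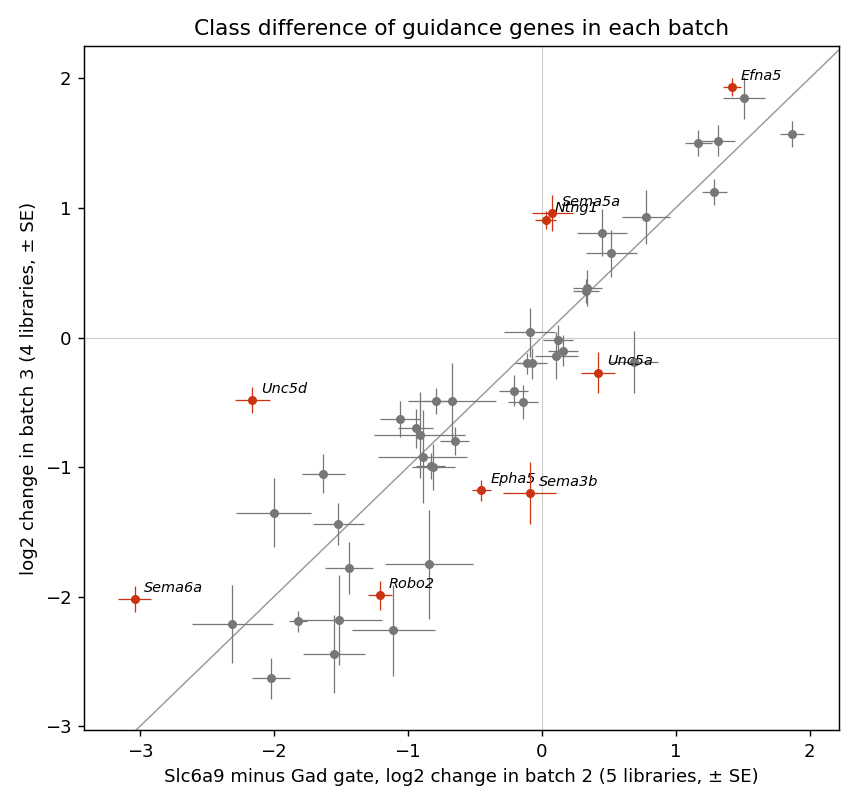
Each point is 1 member, with its Slc6a9 minus Gad log2 change in batch 2 (horizontal, 5 libraries) and batch 3 (vertical, 4 libraries), ± 1 SE; the line marks equal changes. The 9 members with a called interaction are red. Unc5d lies farthest above the line.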

How the data were processed

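The 10 libraries (Chromium 3′ v2) form one group, labelled in 3 batches. The deposited values are UMI counts per gene and cell, whole numbers in 1 table; per the submitters' processing notes, the authors used Cell Ranger 2.1.0 and mm10. The annotation is not given in the sources used here, nor are the cell filters. Nothing there says whether doublets were removed, and no caller was run. A 3′ assay samples 1 end of a transcript, so levels are not compared between genes.

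Counts were summed per library and gate where a library had at least 10 cells on both sides. The genes of the gate stayed in the sums and the scaling, and were dropped from edgeR's results before p-values were adjusted. Sums were tested in edgeR 4.0.16 (R 4.3.3; TMM scaling, filterByExpr, quasi-likelihood test, library as a block, Benjamini-Hochberg over all genes tested). The library block pairs the 2 sums of each library, since they come from 1 suspension. The SE is the absolute log2 change over the square root of the F statistic. Batch comparisons had no block. On simulated data for the Slc6a9 against Gad comparison (11253 genes), 97% of 2-fold and 77.6% of 1.5-fold changes were recovered, with 7.65% of calls false; in the Chat gate (11418 genes) 83.6%, 62.7% and 10.9%, and in the Slc17a8 gate (11460 genes) 79.1%, 64.2% and 4.76%. In each simulation 67 genes changed by 1.5-fold, 67 by 2-fold and 66 by 4-fold, and no other gene changed. In the data, 32.1% of genes were called higher and 29.1% lower between the classes. The simulated share of false calls therefore does not carry over to the data. DESeq2 1.42.0, other filters, depth windows, gate minima and libraries left out were alternatives.

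Genes were named where called at 2-fold or more in the same direction in every library, at most 12 each way, plus up to 6 others with at least 50 CPM; pathway genes, at most 3 each way by size, of which 1 is not reported here. Genes named beyond this were chosen after their values were seen. Members and lists were chosen with earlier results of these data known. Positions are from GENCODE M21 (GRCm38, the assembly of mm10), promoters from RefSeq.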

Additional observations from a re-analysis of the deposited data

Results flagged for a closer look

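One library stood apart from the rest of its gate in 4 of 50 gene and gate groups with a mean of at least 50 CPM, where chance gives about 5% of groups. Efnb3 in the Gad gate was highest in library 1, at 63.6 CPM, with 53.6 CPM the next. Epha10 in the Chat gate was lowest in library 9, at 36.5 CPM, with 79.9 CPM the next, and in the Slc17a8 gate it was highest in library 1, at 92.8 CPM, with 61.7 CPM the next. Epha7 in the Gjd2 gate was highest in library 8, at 108 CPM, with 86.5 CPM the next.

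The Slc6a9 minus Gad log2 change differed between batches 2 and 3 by edgeR's interaction test for 9 members. The change in batch 3 was above that in batch 2 by 1.69 ± 0.18 (SE) for Unc5d (adjusted p = 5.75e-13), 1.03 ± 0.20 for Sema6a, 0.89 ± 0.20 for Sema5a, 0.89 ± 0.11 for Ntng1 and 0.52 ± 0.10 for Efna5. The difference was -0.68 ± 0.21 for Unc5a (adjusted p = 0.0267), -0.72 ± 0.11 for Epha5, -0.77 ± 0.16 for Robo2 and -1.10 ± 0.34 for Sema3b (adjusted p = 0.0259). Unc5a was higher in the Slc6a9 gate of batch 2 (0.42 ± 0.13) and not called in batch 3 (-0.27 ± 0.16). Sema5a (0.08 ± 0.15, then 0.96 ± 0.14) and Sema3b (-0.09 ± 0.20, then -1.20 ± 0.24) were called in batch 3 alone.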

How the results depend on the processing

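Over the genes named by rule, 1714 alternative values kept direction and call, 45 lost the call, 17 gained it and 12 turned. Many of these genes were named because they were called and moved the same way in every library. The alternatives include fits that leave out 1 library at a time and share the rest with the main fit. Agreement was thus partly fixed in advance, and the total does not measure how firm the results are. Counts of called members, given without the share of all genes called in each setting, moved by over 1.5 times as follows. Restricting to Slc6a9-gated cells gave 13 lower of 22 tested in the Gjd2 gate, and 4 higher and 5 lower of 13 in the Slc17a8 gate; fewer genes could be tested there. The Chat gate had 10 lower in batch 3 alone, 18 at 3000 to 8000 UMIs and 9 without Npy-gated cells. The Slc17a8 gate had 7 lower in batch 2 alone, and 7 to 11 over libraries left out (7 without library 5). The Vip gate had 6 lower in batch 3 alone. The Npy gate had 7 higher and 7 lower in batch 3 alone and 8 lower at 3000 to 8000 UMIs. Between batches, the Gad gate had 0 to 2 higher over libraries left out (2 without library 8). The Slc6a9 gate had 2 higher and 11 lower by DESeq2, and over libraries left out 2 to 4 higher (2 without library 4) and 10 to 18 lower (10 without library 7). The interaction had 2 lower by DESeq2 and 2 to 6 over libraries left out (2 without library 5 or 7). Without the library block, which drops the pairing of the sums, lower calls were 6 in the Slc17a8 gate, 9 in the Npy gate and 2 in the interaction. It changed no other count by over 1.5 times; single calls it ended were those of Slit2 in the Chat, Slc17a8 and Vip gates, Efnb3 in the Vip gate, and Sema6a and Robo2 in the Npy gate.

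The turned values among these genes missed the threshold in that setting. Epha5 went to -0.01 in the Slc17a8 gate at 3000 to 8000 UMIs. Slit2 went to -0.05 in the Vip gate with the minimum doubled. In the Npy gate, Epha5 went to 0.02 in batch 2 alone, 0.08 with the minimum doubled and 0.03 without Chat-gated cells, and ran from -0.08 to 0.01 over libraries left out, with 0.00 without library 1 or 3. Ntng1 there went to -0.03 in batch 3 alone, -0.20 with the minimum doubled and -0.01 without cells with markers of another class, and ran from -0.02 to 0.17 over libraries left out. The cause was not tested. Narrow gates hold few cells (17 in the smallest Chat-gated library), which limits members at a few CPM.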
